A study of Mus musculus with 6 samples.

Results

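The genes described here are the heat shock proteins, the J proteins, the CCT chaperonin, the BAG cofactors and the heat shock factors. They were taken from the deposited table by symbol: names that begin with Hspa, Hspb, Hspd, Hspe, Hsph or Hsp90, Dnaja, Dnajb or Dnajc with a number, Cct2 to Cct8 where the symbol ends in the digit, Bag1 to Bag6, Hsf1 to Hsf4, and Tcp1, with Hspbap1 left out. The rule found 90 of 21965 genes and sorted them into 10 classes. RNA from mouse samples labelled as lung tissue was sequenced in 2 groups of 3 libraries, and the groups are labelled Aa-flox and Aa-cko. What Aa stands for is not spelled out, and the labels give no deleted gene, Cre driver, strain, age, sex or treatment. The title of the series names Lkb1, group 2 innate lymphoid cells, ferroptosis, allergic airway inflammation and alpha tocopherol, and the comparison asks how expression differs between the flox and cko libraries. The labels do not say whether replicates are separate animals, so the p-values measure the spread between samples that may be technical repeats. Levels are FPKM (fragments per kilobase of gene and of sequencing depth), and fold changes are log2(FPKM + 1), Aa-cko minus Aa-flox, which understates the change of low genes.

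Molecular chaperones bind proteins that are not yet folded or have come unfolded and help them to reach or regain their shape. HSP70 proteins bind exposed stretches of a chain and release them in cycles of ATP use: J proteins (the DNAJA, DNAJB and DNAJC classes) bring clients and start the hydrolysis, and HSP110 and BAG proteins exchange the nucleotide. HSP90 acts later on kinases and receptors, small HSPs hold unfolding proteins without ATP, and the chaperonins (HSPD1 with HSPE1 in mitochondria, CCT in the cytosol) enclose a client in a chamber. In the heat shock response the transcription factor HSF1 binds heat shock elements, repeats of the unit GAA in alternating orientation, and induces a subset of these genes, foremost the inducible HSP70 genes, while others are made at all times. Leukocytes and structural cells of the lung make both kinds.

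The libraries were first set against their labels. Stk11, the gene of LKB1, averaged 57.2 ± 6.28 FPKM over the Aa-flox libraries and 59.4 ± 4.95 over Aa-cko (SD, n = 3 each; limma adjusted p = 0.721), so the gene of the title was not called lower, and every direction rests on the labels. Markers of lung structural cells were mixed. Among epithelial genes Sftpc, the surfactant protein C gene, averaged 3.14 ± 1.26 and 3.70 ± 1.08 FPKM and Epcam 10.2 ± 1.12 and 4.40 ± 0.722, while Scgb1a1 of club cells stood at 125 ± 13.3 and 143 ± 21.4. Among endothelial genes Cdh5 and Cldn5 stayed under 1 FPKM on average and Pecam1, which leukocytes also make, was at 32.2 ± 1.99 and 26.5 ± 5.13. Markers of several blood cell types moved with the groups. Over all genes 19.2% were called higher and 23.2% lower (limma adjusted p under 0.05). All 6 macrophage and monocyte markers were higher in Aa-cko, with summed levels of 674 to 837 FPKM in Aa-flox libraries and 1988 to 2551 in Aa-cko, all 5 B cell markers were higher (62.2 to 84.7 against 151 to 189), and 5 of 7 T cell markers were lower (1082 to 1261 against 521 to 579). Other types were less clear. Of 4 neutrophil markers 2 were higher and 2 did not pass (2672 to 3409 against 3430 to 5082 FPKM). Of 6 markers of group 2 innate lymphoid cells, 3 were higher, 2 lower and 1 did not pass (159 to 163 against 140 to 163). Of 13 handling and immediate early genes, 4 were higher and 5 lower, with sums of 3477 to 4357 against 2926 to 3101 FPKM. None of the markers listed for these types stood at 0 in every library. The part of these shifts in the chaperone results was not tested, and in bulk RNA fewer cells of a type and less RNA per cell cannot be told apart. Inferred depth was 14.2 to 17.4 M fragments, at which 1 FPKM of a gene of 2 kb rests on 28.4 to 34.7 fragments.

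Of the 90 genes, 72 reached 1 FPKM in at least 3 libraries and were tested, 69 of them in every library. Bag2, Dnajb14 and Dnajc6 entered through 1 group in which all 3 libraries passed. Of the 18 that were not tested, 7 stood at 0 in every library (among them Dnajb8, Dnajc22, Dnajc5b, Dnajc5g, Hsf3 and Hspb3) and 11 were low. A gene is called higher or lower in Aa-cko where limma, fitted over all 10849 genes that passed the same filter, gave a Benjamini-Hochberg adjusted p under 0.05. Of the tested members 15 (20.8%) were called higher, against 19.2% of all genes, and 18 (25.0%) lower, against 23.2% of all genes, so the count of calls was near that of the transcriptome in both directions. Together 33 were called, against 42.4% of all genes. Their median log2 fold change was -0.11, against -0.05 over all genes. The libraries of the groups did not overlap, with Aa-cko above, for 18 members (25.0%, against 23.8% of all genes), and with Aa-cko below for 29 (40.3%, against 29.6%). At least 2-fold calls were 4 higher (5.56%, against 2.37%) and 2 lower (2.78%, against 2.78%). Scaling moved the split: 45.5% of the called members were higher without scaling, 60.7% under upper quartile scaling, 34.4% in scaling without the 20 most abundant genes and 29.4% when libraries were scaled to the same sum. Over all genes the shares were 45.3%, 58.1%, 40.2% and 35.9%, so the split of the members moved with that of the transcriptome. These scalings moved the median of all genes to 0.05, -0.10 and -0.13. None of the 33 called members changed sign under any scaling.

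**Figure D1:**
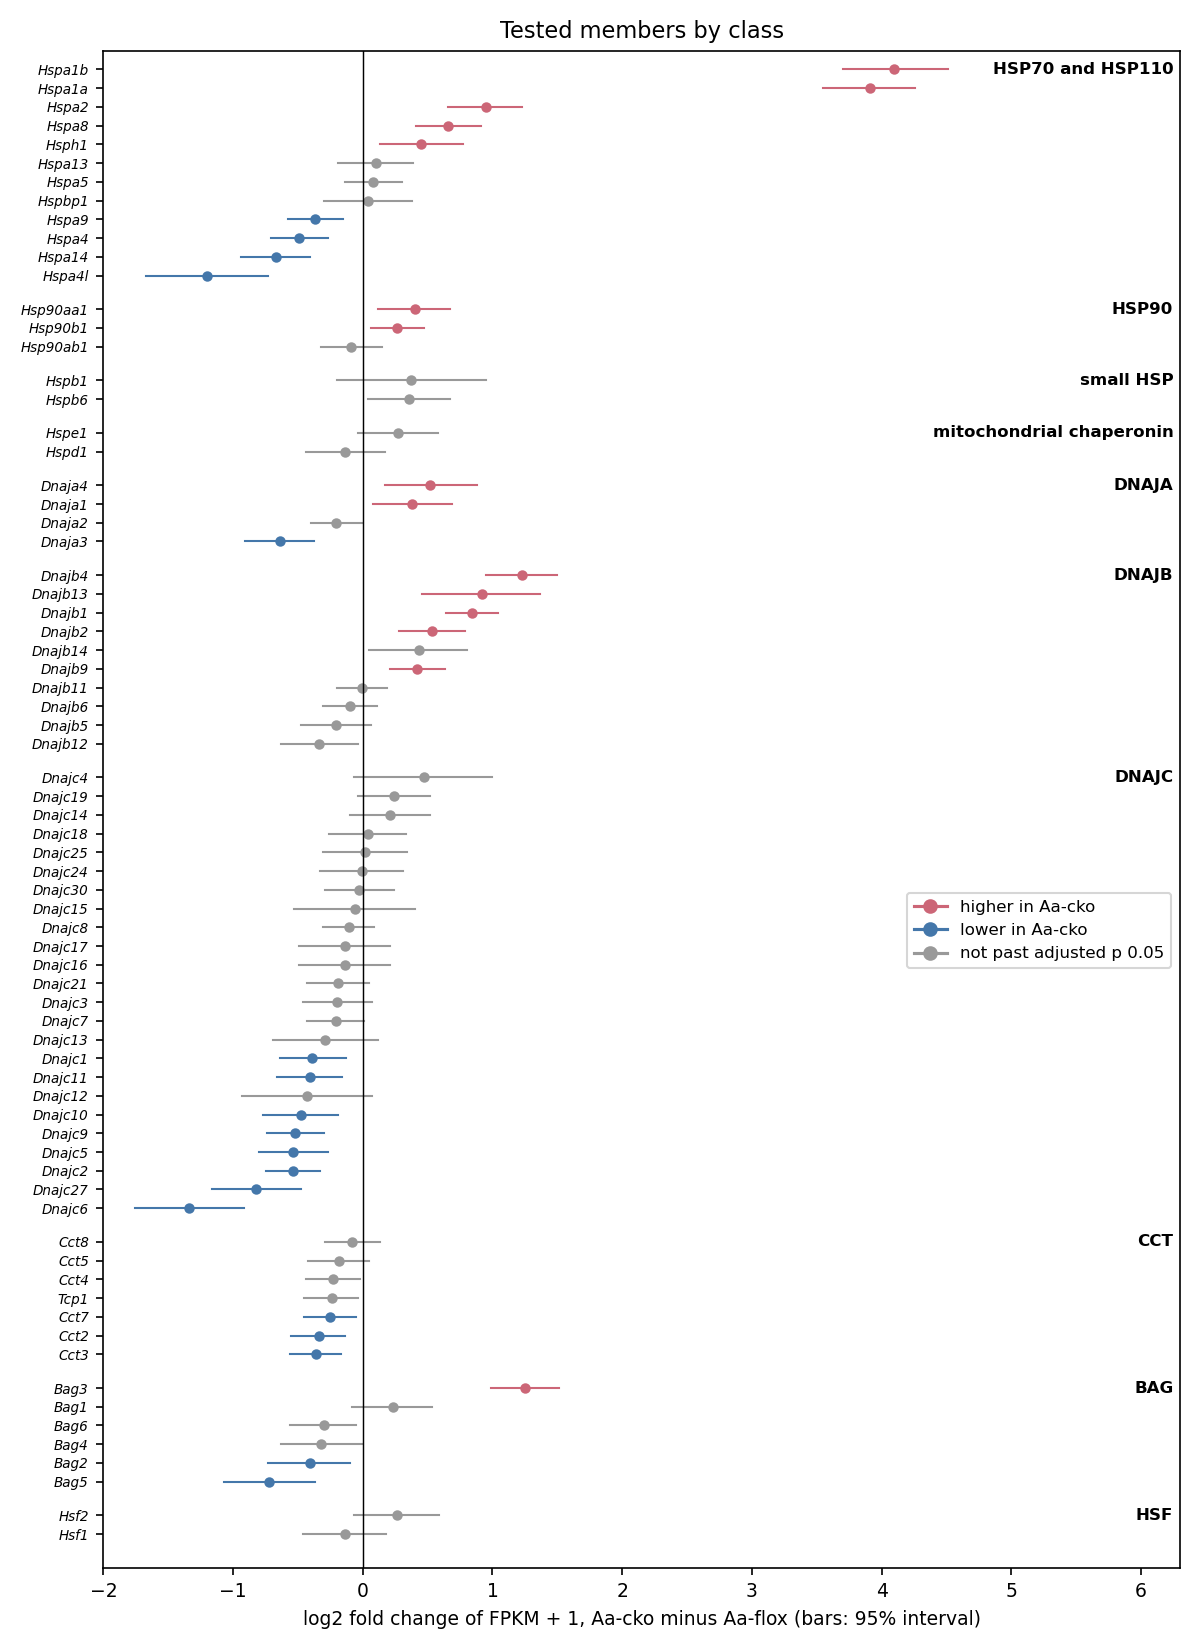
Log2 fold changes on the FPKM + 1 scale of the 72 tested members, Aa-cko minus Aa-flox, sorted within 10 classes; points are limma estimates, bars 95% intervals, and colours mark the call at adjusted p 0.05. Hspa1a (3.91) and Hspa1b (4.10) lie apart from every other member, the DNAJB class holds calls above 0 and none below, and the DNAJC and CCT classes hold calls below 0 and none above.

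The inducible HSP70 genes Hspa1a and Hspa1b had the largest fold changes in the family. Hspa1a (ENSMUSG00000091971) lies on the minus strand of chromosome 17 of mm10 from 34969190 to 34972156, and Hspa1b (ENSMUSG00000090877) beside it from 34956436 to 34959238. Hspa1a read 25.7, 21.9 and 19.4 FPKM in the Aa-flox libraries and 363, 274 and 420 in Aa-cko. Hspa1b read 19.0, 18.0 and 18.8 FPKM in Aa-flox and 352, 243 and 442 in Aa-cko. In both genes every Aa-cko library stood far above every Aa-flox library, with Aa-cko 3 highest and Aa-cko 2 lowest. The means differed 15.8-fold for Hspa1a (log2 3.91 ± 0.16 SE, limma adjusted p = 8.88e-07) and 18.6-fold for Hspa1b (log2 4.10 ± 0.18, limma adjusted p = 1.24e-06). The genes are near copies: over 2701 aligned bases their transcripts were 93.6% identical, and 47.1% of the 100-base stretches of the Hspa1a transcript occur unchanged in Hspa1b. Which of the pair a read came from is therefore uncertain, and the summed level of both differed by log2 4.03 (limma adjusted p = 8.8e-07). An exon of Hspa1a also shares a stretch of 377 bases with Gm20481 on the other strand, so reads of these genes may be mixed. Ranked by mean FPKM among the 90 genes, Hspa1a moved from place 33 to 5 and Hspa1b from 36 to 6.

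The upstream sequences of this pair are shown because they are near copies and each holds a match to GAANNTTC, a pair of heat shock element units. RefSeq windows of 250 bases before the transcription start on GRCm38.p6, the assembly of mm10, are printed on the minus strand, with matches to GAANNTTC in capitals, for Hspa1a at chr17:34972157-34972406 and Hspa1b at chr17:34959239-34959488.
Hspa1a: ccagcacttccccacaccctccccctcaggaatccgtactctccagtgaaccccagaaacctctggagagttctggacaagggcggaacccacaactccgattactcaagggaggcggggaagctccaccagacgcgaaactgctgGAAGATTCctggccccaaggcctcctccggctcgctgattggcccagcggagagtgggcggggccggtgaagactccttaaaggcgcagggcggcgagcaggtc
Hspa1b: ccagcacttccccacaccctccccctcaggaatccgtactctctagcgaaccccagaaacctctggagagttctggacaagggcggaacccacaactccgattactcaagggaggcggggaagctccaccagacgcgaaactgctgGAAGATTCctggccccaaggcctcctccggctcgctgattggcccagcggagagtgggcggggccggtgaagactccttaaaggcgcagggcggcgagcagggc
The windows differed at 3 of 250 bases, and each held the motif once, as GAAGATTC, from 104 to 97 bases before the start. A match is a description of letters, not of binding.

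**Figure D2:**
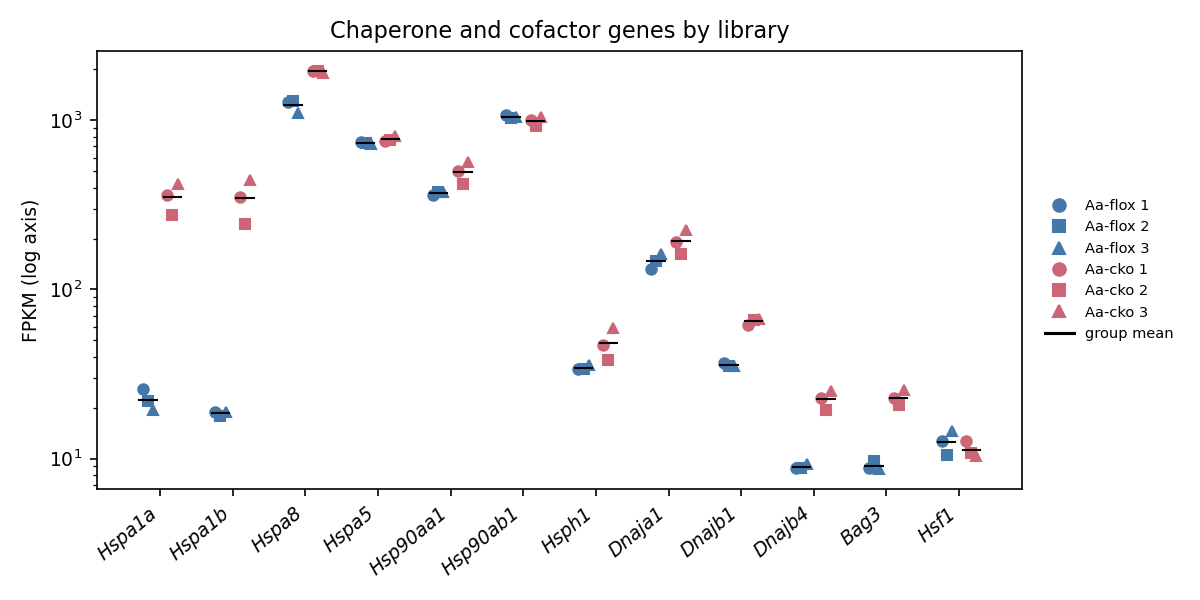
FPKM on a log axis in each library for 12 members, with Aa-flox in blue and Aa-cko in red, marker shape for the library and a bar for the group mean. The Aa-cko points of Hspa1a and Hspa1b (243 to 442 FPKM) lie far above their Aa-flox points (18.0 to 25.7), while Hspa5, Hsp90ab1 and Hsf1 lie close together in both groups.

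Among the HSP70 proteins that are made at all times, the cytosolic form rose and the mitochondrial form fell. Hspa8, the gene of the constitutive HSC70 and the most abundant member in both groups, read 1288, 1298 and 1103 FPKM in Aa-flox and 1961, 1961 and 1907 in Aa-cko. The groups did not overlap, and the log2 fold change was 0.66 ± 0.11 (limma adjusted p = 0.00146). Hspa5, the gene of BiP in the endoplasmic reticulum, read 743, 730 and 722 against 752, 762 and 808 FPKM, a log2 difference of 0.08 with an interval from -0.14 to 0.30 (limma adjusted p = 0.537). Hspa9, the mitochondrial HSP70 mortalin, read 119, 113 and 125 FPKM in Aa-flox and 94.4, 85.0 and 96.6 in Aa-cko. It fell by 0.37 on the log2 scale (limma adjusted p = 0.0128), a call lost under upper quartile scaling (adjusted p = 0.0556) and without Aa-flox 3 (0.0512). Hspa2, best known from the testis, was low and rose from 3.56, 2.79 and 3.14 FPKM to 7.36, 6.59 and 7.06 (log2 0.95, limma adjusted p = 0.000439).

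Hspa14, which forms the ribosome-associated complex with the J protein gene product of Dnajc2, fell from 41.3, 38.4 and 45.3 FPKM to 25.9, 22.6 and 29.0 (log2 -0.67, limma adjusted p = 0.00173). An exon of Hspa14 shares a stretch of 157 bases with Gm45902 on the same strand, so reads of these genes may be mixed. Dnajc2 itself fell from 45.1, 48.8 and 46.2 FPKM to 33.6, 31.7 and 30.0 (log2 -0.54, limma adjusted p = 0.00178). Both partners of that complex were thus lower in every Aa-cko library than in any Aa-flox library. Hspa13, an HSP70-like protein of microsomes, and Hspbp1, a nucleotide exchange factor, did not pass (log2 0.10 and 0.04). Hspa1l, Hspa12a and Hspa12b stayed under 1 FPKM in every library.

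The HSP110 genes, whose products exchange nucleotide on HSP70, went in different directions. Hsph1 read 34.0, 33.9 and 35.6 FPKM in Aa-flox and 47.2, 38.1 and 59.0 in Aa-cko, so the Aa-cko libraries lay above but spread widely, and it rose by log2 0.45 ± 0.14 (limma adjusted p = 0.0309). That call was lost without Aa-flox 1, 2 or 3 or without Aa-cko 1 or 3 (adjusted p from 0.0552 to 0.0852), with log2 0.29 without Aa-cko 3. It was also lost in scaling to the same sum (adjusted p = 0.133), in scaling without the 20 most abundant genes (0.092) and without a filter on low values (0.0748). Hspa4 fell from 74.1, 81.9 and 79.0 FPKM to 58.0, 51.2 and 57.6 (log2 -0.49, limma adjusted p = 0.00319). Hspa4l fell from 27.0, 17.7 and 31.3 FPKM to 9.44, 8.55 and 13.0 (log2 -1.20, limma adjusted p = 0.00174), the second largest fall among the tested members.

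Summed over the HSP70 and HSP110 class, the level rose from 2405, 2384 and 2213 FPKM to 3698, 3487 and 3872. Of the gain of 1352 FPKM between the means, Hspa8 gave 713 and Hspa1a with Hspa1b 657, and the other members together changed by -18.7. The inducible pair made up 1.75 ± 0.0934% of the class in Aa-flox libraries and 18.8 ± 3.74% of it in Aa-cko (SD, n = 3). Over Hspa8, the pair's level was a ratio of 0.0308 to 0.0347 in Aa-flox and 0.264 to 0.452 in Aa-cko. An exact two-sided permutation test of that ratio gave p = 0.1, the smallest that 3 against 3 libraries allow. All 90 genes together went from 6429 ± 111 to 7743 ± 358 FPKM, and without Hspa1a, Hspa1b and Hspa8 the difference was -56.1 FPKM.

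In the HSP90 class the inducible cytosolic form and the form of the endoplasmic reticulum were called higher, and the constitutive cytosolic form was not. Hsp90aa1, the inducible form, read 363, 378 and 377 FPKM in Aa-flox and 500, 420 and 566 in Aa-cko (log2 0.40 ± 0.12, limma adjusted p = 0.0259). Hsp90ab1, the constitutive form, read 1074, 1033 and 1047 against 1008, 918 and 1048 FPKM, and the groups overlapped (log2 -0.09, interval from -0.32 to 0.15, limma adjusted p = 0.53). The ratio of Hsp90aa1 to Hsp90ab1, which does not depend on scaling, was 0.338, 0.366 and 0.360 in Aa-flox and 0.495, 0.458 and 0.541 in Aa-cko, with no overlap (exact two-sided permutation p = 0.1, the smallest possible). Hsp90b1, the gene of GRP94 in the endoplasmic reticulum, read 191, 203 and 187 FPKM against 235, 229 and 235 (log2 0.26 ± 0.09, limma adjusted p = 0.0419). Both calls were near the threshold. Without Aa-flox 1, 2 or 3 or Aa-cko 1 or 3 neither passed (adjusted p from 0.0591 to 0.0908 for Hsp90aa1 and from 0.068 to 0.137 for Hsp90b1). Scaling to the same sum (0.106 and 0.157) and scaling without the 20 most abundant genes (0.068 and 0.087) also ended both, and without an intensity trend Hsp90b1 missed the threshold at 0.0657.

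Small HSPs were scarce. Hspb1, the gene of HSP27, read 2.66, 3.93 and 3.16 FPKM in Aa-flox and 2.55, 6.88 and 4.85 in Aa-cko, overlapping groups that did not pass (log2 0.37, limma adjusted p = 0.263; without Aa-cko 1 it passed, with log2 0.69 and adjusted p = 0.0296). Hspb6, known from muscle, read 2.08, 1.91 and 1.51 against 2.77, 2.87 and 2.23 FPKM (log2 0.36, limma adjusted p = 0.0657). It passed without Aa-cko 3 (adjusted p = 0.0434), under upper quartile scaling (0.0372) and without an intensity trend (0.0487). The other 5 members of the class stayed under 1 FPKM, and Hspb3 was at 0 throughout.

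The mitochondrial chaperonin showed no called change. Hspd1, the chamber subunit HSP60, read 97.8, 103 and 116 FPKM in Aa-flox and 101, 78.5 and 111 in Aa-cko (log2 -0.14, limma adjusted p = 0.439). Hspe1, the lid subunit HSP10, read 70.4, 67.1 and 62.2 against 84.5, 94.9 and 64.6 FPKM (log2 0.27, limma adjusted p = 0.143), and it passed without Aa-cko 3, its lowest Aa-cko library (log2 0.42, adjusted p = 0.00977). The genes stand head to head, and their annotated exons share 112 bases on opposite strands. Whether the authors counted by strand is not stated.

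The DNAJA and DNAJB classes hold the J proteins most often paired with cytosolic HSP70. Of the 10 tested DNAJB members 5 were called higher and none lower, and of the 4 DNAJA members 2 were higher and 1 lower, against 19.2% and 23.2% of all genes. Dnajb4 read 8.79, 8.82 and 9.30 FPKM in Aa-flox and 23.0, 19.3 and 25.1 in Aa-cko (log2 1.23 ± 0.12, limma adjusted p = 9.97e-05). Dnajb1, the gene of the HSP40 that serves HSP70 in the heat shock response, read 36.9, 35.3 and 35.4 FPKM against 61.8, 66.2 and 67.0 (log2 0.84 ± 0.09, limma adjusted p = 0.000141). In both genes the Aa-cko libraries lay well above. They were close together for Dnajb1 and more spread for Dnajb4.

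Dnajb2, a J protein with ubiquitin-binding motifs, rose from 11.2, 11.3 and 11.5 FPKM to 16.4, 15.4 and 18.9 (log2 0.53, limma adjusted p = 0.00494). Dnajb9, the J protein ERdj4 of the endoplasmic reticulum, rose from 47.8, 52.6 and 51.2 FPKM to 64.0, 67.9 and 71.4 (log2 0.42, limma adjusted p = 0.00624), while Dnajb11, ERdj3 of the same compartment, was at 70.1 ± 1.86 and 69.7 ± 0.523 FPKM (log2 -0.01, interval from -0.20 to 0.19). Dnajb13, known from sperm flagella and cilia, rose from 3.02, 2.04 and 1.49 FPKM to 4.94, 6.13 and 3.82 (log2 0.92, limma adjusted p = 0.00554). Its exons share 305 bases with Ucp2 on the other strand, so reads of these genes may be mixed. Dnajb6, which holds back aggregation of glutamine-rich proteins, and Dnajb5 did not pass. Dnajb12 and Dnajb14, both of the membrane of the endoplasmic reticulum, did not pass either (limma adjusted p = 0.0655 and 0.0666); Dnajb12 passed as lower without Aa-cko 3 (adjusted p = 0.0382) and Dnajb14 as higher without Aa-flox 2 (0.0115) or under upper quartile scaling (0.0439).

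In the DNAJA class, Dnaja1, the main cytosolic member, read 132, 147 and 162 FPKM in Aa-flox and 192, 161 and 226 in Aa-cko. The groups overlapped at 161 and 162 FPKM, and its call was weak (log2 0.38 ± 0.14, limma adjusted p = 0.0451). It was lost without Aa-flox 1 or 2 or without Aa-cko 1 or 3 (adjusted p from 0.106 to 0.149), in scaling to the same sum (0.179), in scaling without the 20 most abundant genes (0.123), without a filter (0.0956) and without an intensity trend (0.0639). Dnaja4 rose from 4.04, 3.77 and 2.94 FPKM to 5.81, 4.55 and 6.46 (log2 0.52, limma adjusted p = 0.0227), and the call was lost without Aa-flox 3 (adjusted p = 0.0851), Aa-cko 1 (0.0778) or Aa-cko 3 (0.0572) and in scaling to the same sum (0.0654). Exons of Dnaja1 and Dnaja4 overlap Smu1 and Wdr61 on the other strand by 608 and 1581 bases. Dnaja2, the other cytosolic member, read 94.3, 96.0 and 94.1 against 78.9, 83.9 and 83.1 FPKM and did not pass (log2 -0.21, limma adjusted p = 0.0817); in scaling without the 20 most abundant genes (0.041) and to the same sum (0.0261) it was called lower. Dnaja3, the mitochondrial J protein that works with mortalin, fell from 8.79, 8.35 and 9.57 FPKM to 5.07, 5.61 and 5.33 (log2 -0.64, limma adjusted p = 0.00229), as Hspa9 did.

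Heat shock elements were then looked for in the promoters of the family, on both strands of RefSeq windows from 250 bases before to 50 after the start. Windows were found for 71 members, among them 13 of the 15 called higher (Hsp90aa1 and Hspa8 had none). Some genes had several starts, and a gene counts where any of its windows holds the motif. GAANNTTC, an inward-facing pair of units, was found in 6 of those 13 (46.2%), in 2 of 14 called lower (14.3%), in 5 of 31 tested members that did not pass (16.1%), in 3 of 13 that were not tested (23.1%), in 16 of the 71 in all (22.5%) and in 9.04% of all 27025 genes with a window. The sets differ in windows per gene. By window, the motif was in 7 of 20 windows of the members called higher (35.0%). It was in 2 of 17 of those called lower (11.8%) and in 7.86% of all 32851 windows. The near-copy pair Hspa1a and Hspa1b counts as 2 of the 6 genes. The 6 were Hspa1a, Hspa1b, Hsph1, Dnaja1, Dnaja4 and Bag3, and the 2 called lower were Cct2 and Dnajc27. The calls of Hsph1, Dnaja1 and Dnaja4 were lost in 8, 8 and 4 alternative fits, and that of Cct2 in 2. Dnajb1, Dnajb2, Dnajb4, Dnajb9, Dnajb13, Hspa2 and Hsp90b1 were called higher and held no GAANNTTC in their windows. The outward-facing pair TTCNNGAA, added after the data were seen, was in 2 of the 13 (15.4%), against 9.60% of all genes. A run of 3 units (GAANNTTC followed by NNGAA, or TTCNNGAA followed by NNTTC, each of which contains both pairs) was in 0.662% of all genes and in 4 members, Hsph1, Hspd1, Hspe1 and Dnajb6, of which only Hsph1 was called. The counts are a description of letters in these windows, and a missing match says only that the letters are not there.

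Dnajb4, the J protein with the largest log2 rise, had 2 windows. The one at the 5′ end of the gene held no match to any of these motifs. The one shown, chosen for its match close to the start, belongs to a start inside the annotated gene and is given as the 250 bases before it on the minus strand, at chr3:152193846-152194095, with the outward-facing pair in capitals.
Dnajb4: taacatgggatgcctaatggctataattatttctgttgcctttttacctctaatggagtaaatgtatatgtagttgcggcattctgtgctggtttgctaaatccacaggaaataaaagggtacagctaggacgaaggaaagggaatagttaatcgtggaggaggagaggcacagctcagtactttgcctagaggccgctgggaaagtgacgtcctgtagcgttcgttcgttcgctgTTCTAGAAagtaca
Here Dnajb4 held TTCTAGAA from 14 to 7 bases before this inner start. Other matches were further up: Dnaja1 held GAAAATTC from 124 to 117 before 1 of its 3 starts, and Dnaja4 held GAACGTTC from 90 to 83 and GAACCTTC from 52 to 45 before 1 of its 2 starts. Between Hspe1 and Hspd1 the run of 3 units goes on to 4. The runs of 3 or more units are shown for comparison, since 3 of their 4 genes were not called. They were TTCTGGAAAGTTC in Hsph1, at bases 16 to 28 or 37 to 49 after its starts, GAATCTTCCGGAA in Dnajb6, from 46 to 34 or from 127 to 115 bases before its starts, and, between the divergent pair, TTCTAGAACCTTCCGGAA from 89 to 72 before Hspe1, which on the other strand lies from 144 to 127 before 1 of the 2 starts of Hspd1.

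The DNAJC class, whose members share the J domain but serve many separate tasks, leaned the other way. None of its 24 tested members was called higher and 8 were called lower (33.3%, against 23.2% of all genes). Of the 24, 17 lay below the median of all genes. The count was the same under each of the 4 scalings, which adds no support. Scaling whole libraries moves the members and that median by nearly the same amount. Dnajc6, the gene of auxilin, which strips clathrin from vesicles, fell furthest of all members, from 4.45, 4.66 and 6.40 FPKM to 1.34, 0.97 and 2.07 (log2 -1.34 ± 0.19, limma adjusted p = 0.000552). Dnajc27, a small GTPase with a J domain, fell from 2.65, 3.57 and 3.88 FPKM to 1.60, 1.20 and 1.59 (log2 -0.82, limma adjusted p = 0.0023). The groups did not overlap for either gene.

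Among the more abundant members, Dnajc9, a histone chaperone, fell from 54.6, 50.8 and 57.0 FPKM to 37.7, 39.8 and 34.6 (log2 -0.52, limma adjusted p = 0.00249). Dnajc5, the cysteine string protein of secretory vesicles, fell from 40.5, 42.2 and 46.7 FPKM to 29.6, 25.5 and 33.4 (log2 -0.54, limma adjusted p = 0.00541). Dnajc10 (log2 -0.48), the reductase ERdj5 of the endoplasmic reticulum, Dnajc11 (-0.41), a mitochondrial membrane protein, and Dnajc1 (-0.39), ERdj1, completed the 8. Leaving out 1 library ended the call of these 3 genes: Dnajc10 without Aa-flox 3 (adjusted p = 0.0514), Dnajc11 without Aa-flox 1 (0.0547), and Dnajc1 without Aa-flox 2 (0.0514), Aa-flox 3 (0.0973) or Aa-cko 1 (0.0784). Under upper quartile scaling Dnajc11 (0.0516) and Dnajc1 (0.0662) were lost too. Of the 16 members that did not pass, Dnajc8, a splicing factor, was the most abundant at 104 ± 5.71 and 96.4 ± 0.573 FPKM. Without Aa-cko 3, Dnajc4 was called higher (adjusted p = 0.0071) and Dnajc12 (0.0192) and Dnajc13 (0.0271) lower, and in scaling to the same sum Dnajc7 was lower (0.044). The summed level of the class was 490 to 513 FPKM in Aa-flox and 412 to 422 in Aa-cko.

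The CCT chaperonin is a double ring of 8 kinds of subunit that folds actin and tubulin. All 7 members had a log2 fold change below 0, from -0.36 to -0.08, and 3 were called lower (42.9%, against 23.2% of all genes). Cct3 read 101, 95.9 and 94.8 FPKM in Aa-flox and 77.3, 74.2 and 74.6 in Aa-cko (log2 -0.36 ± 0.09, limma adjusted p = 0.00884). Cct2, the most abundant, read 239, 229 and 226 against 178, 188 and 180 FPKM (log2 -0.34 ± 0.09, limma adjusted p = 0.0135). Cct7 read 111, 108 and 106 against 93.9, 92.3 and 86.6 FPKM (log2 -0.25 ± 0.09, limma adjusted p = 0.0454). In these 3 genes every Aa-cko library lay below every Aa-flox library, as in Tcp1 and Cct4.

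Tcp1, the first subunit, read 150, 150 and 139 FPKM against 126, 127 and 117 and missed the threshold (log2 -0.24, limma adjusted p = 0.0587). Cct4 (-0.23), Cct5 (-0.18) and Cct8 (-0.08) did not pass. Cct6a, the subunit whose symbol the rule does not match, went from 86.6 ± 1.19 to 68.0 ± 1.03 FPKM (log2 -0.34, limma adjusted p = 0.0103), and Cct6b, its testis form, stayed under 1 FPKM. The summed level of the 7 members was 1014, 978 and 955 FPKM in Aa-flox and 825, 847 and 808 in Aa-cko. That is 0.153 ± 0.00237 and 0.107 ± 0.00751 of the summed level of all 90 genes (exact two-sided permutation p = 0.1, the smallest possible). The sum of all 90 genes rose by 1314 FPKM, and without Hspa1a, Hspa1b and Hspa8 it changed by -56.1. The lower share thus holds both the fall of CCT and the rise of those genes. The calls turned on scaling: 0 of 7 passed under upper quartile scaling (adjusted p = 0.0582 for Cct3, 0.104 for Cct2 and 0.288 for Cct7) and 6 in scaling to the same sum. Cct8 turned above 0 under upper quartile scaling. All 7 lay below the median of all genes, unscaled and under each of the 4 scalings. That position could hardly change, since scaling whole libraries moves the members and the median by nearly the same amount. Leaving out Aa-cko 1 ended the call of Cct2 (adjusted p = 0.0676), and leaving out any single library ended that of Cct7 (0.0549 to 0.111), as did TMM scaling (0.0745), no filter (0.053) and no intensity trend (0.0785).

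**Figure D3:**
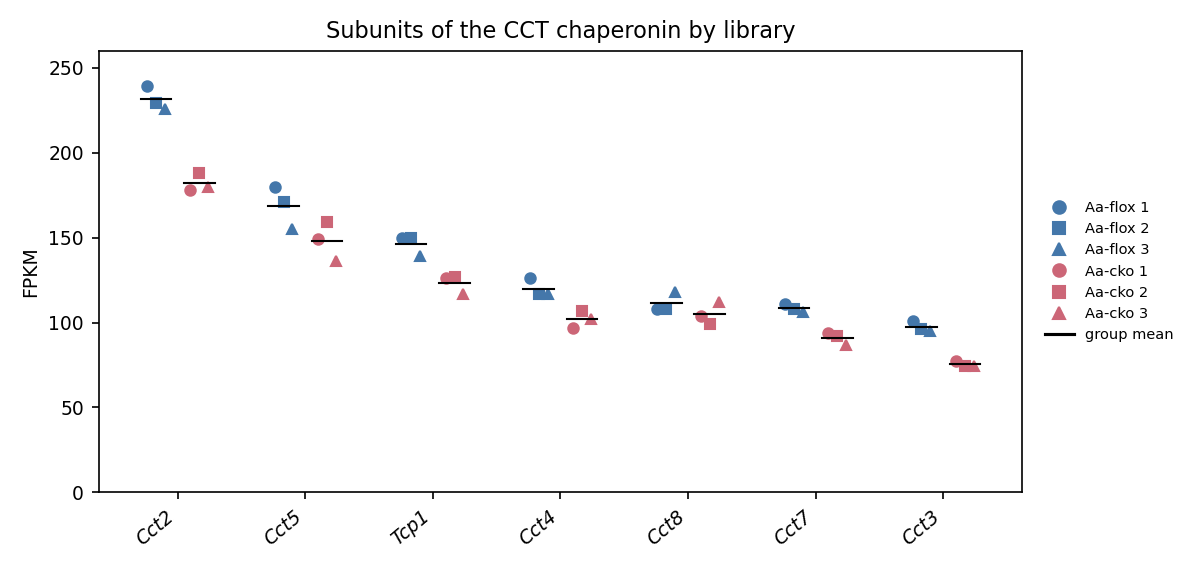
FPKM of the 7 CCT members in each library, with Aa-flox in blue and Aa-cko in red, marker shape for the library and a bar for the group mean; the axis starts at 0. Every Aa-cko point lies below every Aa-flox point for Cct2, Tcp1, Cct4, Cct7 and Cct3, and the groups overlap for Cct5 and Cct8.

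BAG proteins release clients from HSP70. Of the 6, 1 was called higher (16.7%, against 19.2% of all genes) and 2 lower (33.3%, against 23.2%), counts near those of the transcriptome. Bag3, which leads HSP70 clients to selective autophagy and is known as an HSF1 target, read 8.79, 9.73 and 8.66 FPKM in Aa-flox and 22.8, 20.7 and 25.3 in Aa-cko (log2 1.25 ± 0.12, limma adjusted p = 7.57e-05). Its window held GAAGTTTC at bases 43 to 50 after the start. Bag5, which binds HSP70 through several BAG domains, fell from 18.9, 12.9 and 17.1 FPKM to 8.10, 9.53 and 10.7 (log2 -0.72, limma adjusted p = 0.00523). Bag2, which inhibits the ubiquitin ligase CHIP, fell from 1.92, 1.53 and 1.32 FPKM to 0.789, 1.11 and 0.916 (log2 -0.41, limma adjusted p = 0.0388). That call was lost without Aa-flox 1 (adjusted p = 0.129), Aa-flox 2 (0.0781), Aa-cko 1 (0.131) or Aa-cko 3 (0.0695), under upper quartile scaling (0.0764) and without a filter (0.0569).

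Bag1, the founding member, read 89.4, 87.6 and 71.6 FPKM against 94.3, 114 and 83.7 and did not pass (log2 0.23, limma adjusted p = 0.204). Bag6, which passes tail-anchored proteins on to the membrane, and Bag4 did not pass (log2 -0.30 and -0.32), although the Aa-cko libraries lay below for both. Without Aa-cko 3 Bag6 was called lower (adjusted p = 0.0221), as it was in scaling to the same sum (0.047) and with the filter at 5 FPKM (0.0499).

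The heat shock factors themselves were not called. Hsf1 read 12.8, 10.5 and 14.6 FPKM in Aa-flox and 12.8, 10.8 and 10.4 in Aa-cko (log2 -0.14 ± 0.14, interval from -0.46 to 0.18, limma adjusted p = 0.456). Hsf2, a partner of HSF1, read 5.62, 5.72 and 5.72 against 6.78, 5.78 and 8.67 FPKM (log2 0.26, limma adjusted p = 0.189). HSF1 is controlled mainly after translation, so its transcript level is no measure of its activity. Hsf4, known from the lens, stayed under 1 FPKM and Hsf3 was at 0.

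Within the Aa-cko group 9 of the 15 called rises shared an order of libraries. Aa-cko 3 was highest and Aa-cko 2 lowest for 9 of the 15 members called higher (60.0%), against 21.2% of the 2087 genes called higher in all. The same order held for 41.6% of the 2515 genes called lower and for 6 of the 18 members called lower (33.3%), so it is not confined to the rises. The 9 were Hspa1a, Hspa1b, Bag3, Dnajb4, Dnajb2, Dnaja4, Hsph1, Hsp90aa1 and Dnaja1, and the near copies Hspa1a and Hspa1b count as 2 of them. The spread was widest for Hspa1b, from -0.46 to 0.40 around the mean log2 level of the group. Hspa8, Hspa2, Dnajb1, Dnajb9, Dnajb13 and Hsp90b1 did not follow the order, and Dnajb13 ran against it. The order was noticed after the values were seen and carries no test.

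**Figure D4:**
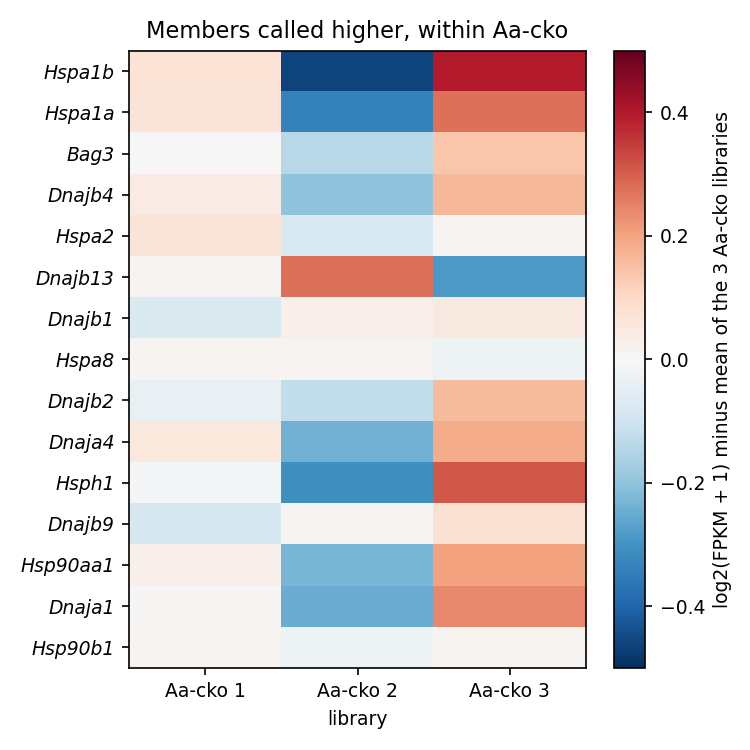
For the 15 members called higher, the log2(FPKM + 1) value in each Aa-cko library minus the mean of the 3 Aa-cko libraries, from blue (lower) to red (higher), with genes sorted by log2 fold change. Aa-cko 2 is lowest and Aa-cko 3 highest in 9 of the 15 rows, with the widest span in Hspa1b (-0.46 to 0.40).

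Genes that work with the family were read from 6 lists chosen by function. Over all genes 19.2% were called higher and 23.2% lower, and the counts of each list are to be read against these shares. Of 25 tested cofactors of HSP70 and HSP90, 3 were higher and 9 lower. Ppid, the cyclophilin of HSP90 complexes, fell by 0.75 on the log2 scale, Tomm70a, the mitochondrial import receptor for chaperone-bound proteins, by 0.62, Fkbp5, an HSP90 immunophilin, by 0.46, and Stip1, which links HSP70 to HSP90, by 0.38 (limma adjusted p = 0.000447, 0.00196, 0.00763 and 0.0106). The 3 that rose were Sil1 (log2 0.57) and Grpel2 (0.42), exchange factors of the endoplasmic reticulum and of mitochondria, and Ahsa1 (0.26), which activates the ATPase of HSP90 and lay at the threshold (limma adjusted p = 0.0498). The other 13 did not pass.

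The next 3 lists stand against the same shares of 19.2% and 23.2%. Of 14 prefoldin and tubulin cofactors, which hand clients to CCT or take them from it, Tbcb was higher (log2 0.64), Pfdn2 lower (-0.39) and 12 did not pass. Of 11 mitochondrial protein quality genes, 1 was higher, the protease gene Htra2 (log2 0.74), and 5 were lower: the protease genes Lonp1 (-0.59) and Yme1l1 (-0.37) and the import genes Tomm40 (-0.55), Timm23 (-0.42) and Timm44 (-0.30). Of 19 tested endoplasmic reticulum folding genes, 6 were higher and 2 lower. The protein disulfide isomerases Pdia4 (log2 0.77), Pdia6 (0.46) and Pdia3 (0.37) and the BiP cofactor Sdf2l1 (0.92) rose, and Herpud1 (-0.91) and Edem1 (-0.58), which act in degradation, fell.

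Of 15 other genes known to be induced by heat shock or proteotoxic stress, 9 were higher (60.0%, against 19.2% of all genes), none was lower and 6 did not pass. Rgs2, whose product damps G protein signals, rose from 55.0 ± 4.74 to 133 ± 9.48 FPKM (SD, n = 3; log2 1.26, limma adjusted p = 3.97e-05). Mt1, a metallothionein gene, rose by log2 1.09, and Hmox1, heme oxygenase, by 0.86. These 2 are also made by macrophages, whose markers rose in the same libraries. Whether that shift has a part in the levels of Mt1 and Hmox1 was not tested. Of 8 genes listed by symbol as regulators of HSF1, none was higher and 3 were lower, where 23.2% of all genes were. The 3 were Fbxw7 (log2 -0.59), which marks HSF1 for degradation, Strap (-0.33) and Ywhae (-0.31). Whether the gene under the symbol Strap acts on HSF1 was not checked, so its place in the list is uncertain. These lists were drawn up with earlier results of these libraries known, and their counts are not independent evidence of a direction.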

How the data were processed

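RNA-seq libraries of mouse lung tissue, 3 Aa-flox and 3 Aa-cko, were read from 1 deposited table in which the authors give FPKM per gene. Per the submitters' processing notes reads were placed on mm10; the aligner, quantifier, annotation and use of strand were not given in the sources used here. Per the labels' protocols, libraries were made from total RNA with a SMARTer mRNA-Seq kit. No counts were used; depth was inferred from the spacing of low FPKM values, and 46.5 to 48.0% of held-out values were whole to within 0.1 fragment (20% by chance), so no count test was run.

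Positions come from GENCODE M21, which held all 90 genes, and promoter windows from RefSeq (GRCm38.p6). Group was the only term of a limma fit (version 3.58.1, R 4.3.3) to log2(FPKM + 1) values, moderated robustly along an intensity trend. It covered the 10849 genes that reached 1 FPKM in 3 or more libraries, and two-sided p-values had a Benjamini-Hochberg adjustment over all of them, with a threshold of 0.05. The code was tested on simulated data. Errors of levels are SDs, errors of log2 differences are standard errors, and intervals cover 95%. Other tools were Python 3.11.15, pandas 2.3.3 and, for plots, matplotlib 3.10.9.

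The members, classes, 6 function lists and 10 marker lists were chosen with earlier results of these data known. Per-library values are given for a set list of 18 members, the 3 of smallest p in each class, and the 5 largest rises and falls; up to 4 genes of smallest p are given per function list, and others were named after their values were seen. Ero1l and Ero1lb were not matched, and 2 genes are not reported here. Alternatives covered scaling, filters, pseudocounts, moderation, a replicate block and leaving out each library.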

Additional observations from a re-analysis of the deposited data

How the results depend on the processing

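Of the 33 called members, 20 kept sign and call in every alternative in which they were tested, none changed sign, and 14 of the 39 that did not pass were called in at least 1 alternative. Upper quartile scaling left 11 members called lower instead of 18, and a threshold of 0.01 left 11 lower members and, over all genes, 1269 higher and 1479 lower instead of 2087 and 2515. Leaving out 1 library gave 11 to 15 members called higher and 14 to 20 called lower, and over all genes 1443 to 2022 higher and 1795 to 2734 lower. In these fits a group of 2 libraries is assumed to vary like the other. The summed level of all members, log2 0.27 between the group means, was 0.38 under upper quartile scaling and 0.18 at the same sum; the HSP70 and HSP110 sum went from 0.66 to 0.77 under upper quartile scaling, and the CCT sum from -0.25 to -0.13 and -0.34. The cause was not tested. Replicate numbers were shared by the groups, but deviations of same-numbered libraries correlated at -0.02 to 0.52, so the numbers were not taken as pairing. With the replicate block 19 members were called higher and 24 lower, and over all genes 2451 and 3058. FPKM without counts limits what can be said of members near 1 FPKM.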
